A study of Mus musculus with 6 samples.

Results

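The receptors through which serotonin, dopamine, noradrenaline, acetylcholine and histamine act were followed in the cerebral cortex of mice of 6 and 24 months of age. The rule that picked them used gene symbols and no measured value, and took the genes named Htr, Drd, Adra, Adrb, Chrm, Chrn and Hrh with a subtype number or subunit letter. It picked out 54 of the 55421 genes listed, of which 53 encode receptors or receptor subunits and 1, Chrna1os, is an antisense RNA named after its neighbour Chrna1. The receptors divide into 14 for serotonin, 5 for dopamine, 9 for noradrenaline, 5 muscarinic, 11 neuronal nicotinic and 5 muscle nicotinic for acetylcholine, and 4 for histamine. RNA-seq libraries came from the whole cortex of 3 mice of 6 months (mice 10, 11 and 17) and 3 mice of 24 months (mice 2, 4 and 5), each library from 10 ng of total RNA with a low-input kit. All 6 were wild-type (WT) C57BL/6J males, all were anesthetized with isoflurane before they were killed, and none carried a transgene or other treatment in the labels. The comparison asks how the RNA of these receptors differs between the cortex of adult and old mice.

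Nearly all of these transmitters reach the cortex along fibres of small groups of neurons elsewhere in the brain: the raphe for serotonin, the locus coeruleus for noradrenaline, the midbrain for dopamine, the basal forebrain for acetylcholine and the hypothalamus for histamine. Cortical cells therefore carry the receptors while the enzymes that make the transmitters are mostly made at a distance. Most of the receptors are G protein-coupled: those coupled to Gq raise calcium, those coupled to Gs raise cyclic AMP and those coupled to Gi lower it. The nicotinic receptors and the serotonin Htr3 receptor are ion channels built from subunits around a pore.

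Each library held 29495379 to 36494240 counts. Counts were seen on 40208 to 43561 genes per library at 24 months and on 33974 to 35651 at 6 months. A set of 1831 odorant, vomeronasal and taste receptor genes, which mark sensory tissue, had a mean level of 0.0720 to 0.0835 TPM in the 6-month libraries and of 0.195 to 0.315 TPM in the 24-month libraries. TPM is the count divided by gene length and scaled to the library. These genes were thus higher in all 24-month libraries, and a rise of a receptor with few counts cannot be told apart from this difference between the libraries. Marker genes of neurons, interneurons, astrocytes, oligodendrocytes, microglia, vessels, choroid plexus, meninges, blood and striatum (69 genes in all) had at least 2 counts in every library, and none was at 0. For a tissue labelled cortex, neuron markers summed to 7774 to 11403 CPM, counts scaled to the library but not to gene length, against 18.3 to 44.8 CPM for those of choroid plexus. Markers of striatal projection neurons summed to 203.3 to 293.0 CPM.

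The receptors spanned levels from 139.5 TPM to 0.0917 TPM, as means over the 6 libraries on the TPM scale, which accounts for the length of each gene. The mean was at least 1 TPM for 33 of the 53. The histamine autoreceptor Hrh3 stood first, ahead of the muscarinic receptor Chrm1 (93.3 TPM), the adrenergic receptor Adra1d (70.0 TPM) and the serotonin receptor Htr2a (44.1 TPM). After them came Adra1b (35.96 TPM), Adrb1 (29.2 TPM), the nicotinic subunit Chrna4 (27.6 TPM), Chrm3 (26.8 TPM), Htr1a (22.7 TPM) and Chrm4 (21.4 TPM). Hrh3 exceeded Chrm1 in every library. Otherwise the order is loose: for 50 of the 53 receptors, 9 of the first 10 included, the range over the 6 libraries overlapped that of the next lower receptor. The levels of Chrm4 and Chrm5 rest on annotations of a single exon of 1440 and 1599 bases, against 6487 bases for Chrm1, and a short annotated length raises a level per length. Each transmitter had 1 or a few dominant receptors. Hrh3 made up 84.8% of the summed TPM of the histamine receptors at 6 months, Chrm1 62.8% of that of the muscarinic receptors and Chrna4 53.6% of that of the neuronal nicotinic subunits.

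**Figure D1:**
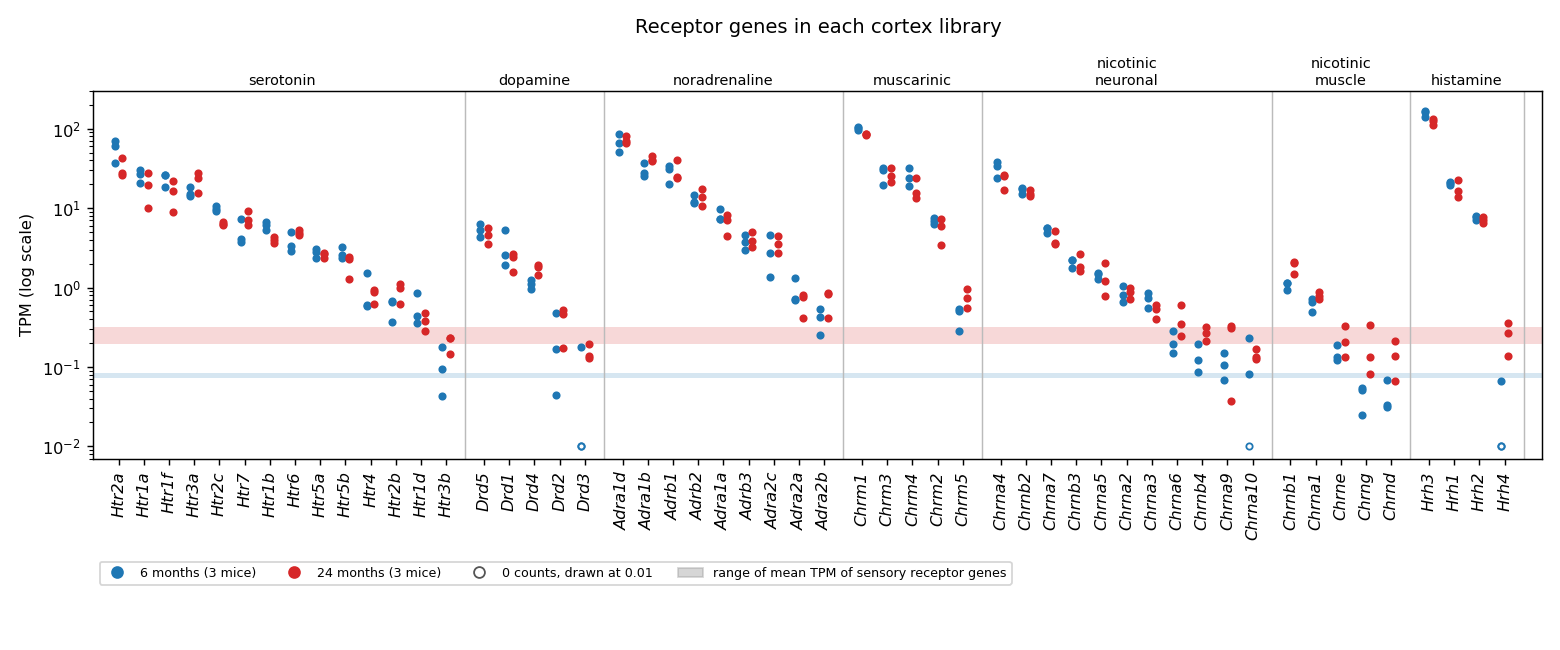
Level of each of the 53 receptor genes in each library, in TPM on a log scale, grouped by transmitter, with 1 point per mouse (blue, 6 months; red, 24 months) and libraries without a count drawn hollow at 0.01. The bands show the range over libraries of the mean TPM of the sensory receptor genes, 0.0720 to 0.0835 TPM at 6 months (blue) and 0.195 to 0.315 TPM at 24 months (red), and Hrh3 and Chrm1 lie highest.

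Between the ages, 7 receptors were lower at 24 months and 1 was higher at 10% FDR (false discovery rate). The test was edgeR's quasi-likelihood test, with p-values adjusted by the Benjamini-Hochberg method over 32905 genes. The lower ones were the serotonin receptors Htr2a, Htr2c and Htr1b, the histamine receptor Hrh3, the muscarinic receptor Chrm1 and the nicotinic subunits Chrna4 and Chrna7. The higher one was Hrh4, on 1 count at 6 months and 11 at 24 months. Every one of the lower receptors had a mean of at least 1 CPM, as did 35 of the 53 receptors. These 7 of 35 are 20.0%, against 17.3% of all 15761 genes of that level (8.33% of all genes tested), so falls were about as frequent among the receptors as among other expressed genes. The higher call, 1 of 53, compares with 10.0% of all genes tested, and 0 of the 35 were higher, against 2.43% of genes of at least 1 CPM. At 1% FDR 0 receptors passed in the quasi-likelihood test, as did 0.0% of all genes, whereas edgeR's likelihood ratio test passed 3 receptors (0.766% of all genes lower and 4.41% higher) and DESeq2's Wald test 2 (0.423% lower and 0.412% higher). At an unadjusted p under 0.05, 9 receptors were lower (25.7% of those of at least 1 CPM, against 26.9% of such genes) and 5 were higher, 3 of them of at least 1 CPM (8.57%, against 4.23%; 13.1% of all genes tested were lower and 17.6% higher). In CPM, the ages did not overlap in 7 receptors that were lower (6 of at least 1 CPM, 17.1%, against 32.5%). They also did not overlap in 5 that were higher (2 of at least 1 CPM, 5.71%, against 5.32%). The shares of all genes tested were 16.3% and 20.0%. The median log2 fold change was -0.08 over the receptors and 0.15 over all genes tested, and -0.28 against -0.14 among those of at least 1 CPM. Scaled by library totals alone, the median of the receptors was 0.11 and that of all genes 0.34, and 3 receptors were lower and 4 higher at 10% FDR.

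With 1 mouse left out the calls at 10% FDR changed in number. Without the 6-month mouse 10 or 11 or the 24-month mouse 4 no receptor was called (0 lower, 0 higher), and the smallest adjusted p was 0.150, 0.145 and 0.166. In those fits at most 1 gene of the whole table was called at 10% FDR, while 9, 5 and 7 receptors were lower at an unadjusted p under 0.05. Without the 24-month mouse 2 only Htr2c was called, without the 6-month mouse 17 there were 5 lower and 2 higher calls and without the 24-month mouse 5 there were 10 lower and 5 higher. By the unadjusted p, Htr2c, Htr2a, Htr1b and Hrh3 stayed under 0.05 in all 13 alternative fits, Chrm1 in 12, Chrna4 in 11 and Chrna7 in 6. Whole cortex was sequenced, so fewer cells of a type and less RNA per cell cannot be told apart in any of these values.

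**Figure D2:**
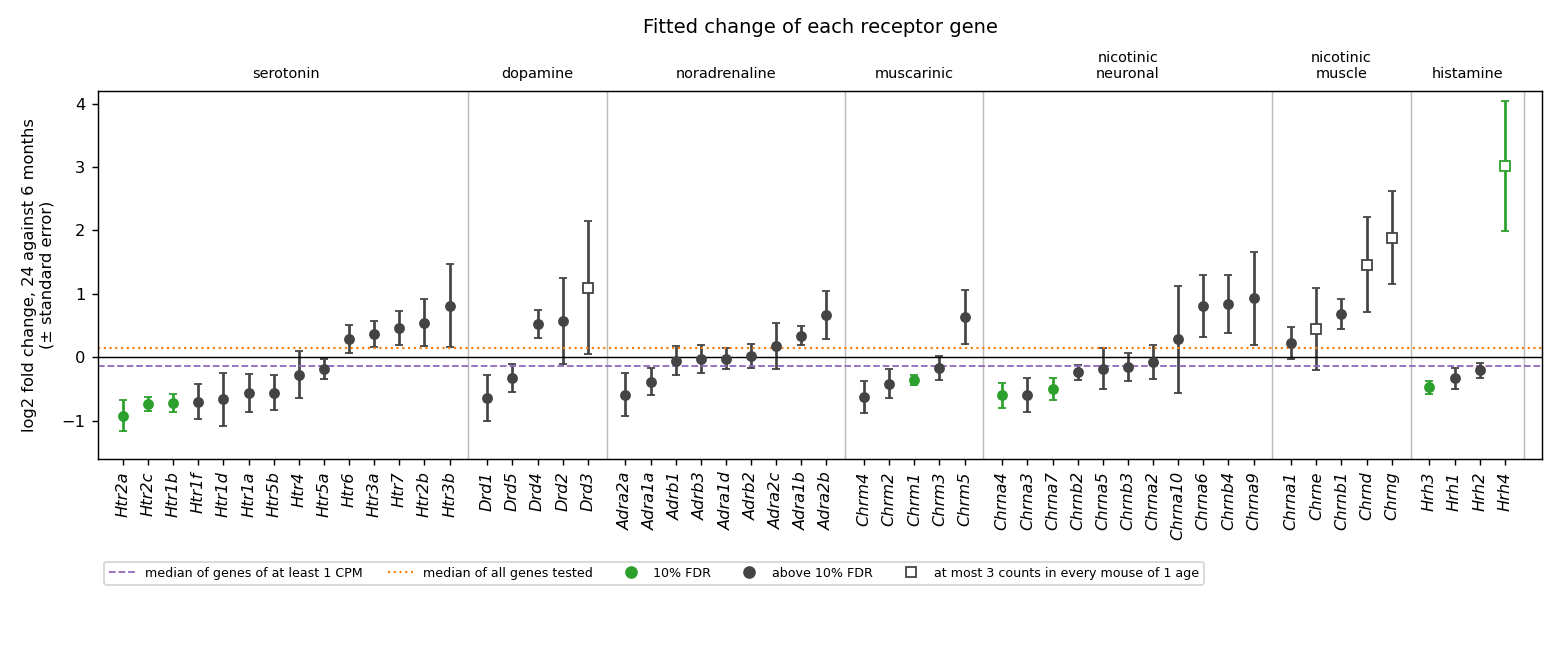
Log2 fold change at 24 against 6 months (vertical axis) for each of the 53 receptor genes, grouped by transmitter, with bars of 1 standard error from edgeR's quasi-likelihood fit, genes called at 10% FDR in green and lines at the medians of all genes tested (0.15) and of genes of at least 1 CPM (-0.14). The 7 lower calls lie below both lines, and hollow squares mark genes with at most 3 counts in every mouse of 1 age, Hrh4 among them, whose fitted values are no bound on the change.

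The start regions of 4 of the lower receptors are shown because they differ widely in CpG content although the 4 genes moved in the same direction. Each runs from 250 bases before to 50 bases after the start of the gene in RefSeq (GRCm38.p6), 5′ to 3′ on the strand of the gene, with CG pairs in capitals.
Htr2c, chrX:146962263-146962562, plus strand: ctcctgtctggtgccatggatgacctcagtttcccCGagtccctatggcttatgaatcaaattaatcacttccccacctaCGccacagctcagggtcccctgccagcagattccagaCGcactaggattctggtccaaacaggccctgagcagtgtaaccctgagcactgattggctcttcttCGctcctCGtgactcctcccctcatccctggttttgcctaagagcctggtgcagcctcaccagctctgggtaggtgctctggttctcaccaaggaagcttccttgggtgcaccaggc
Htr2a, chr14:74640624-74640923, plus strand: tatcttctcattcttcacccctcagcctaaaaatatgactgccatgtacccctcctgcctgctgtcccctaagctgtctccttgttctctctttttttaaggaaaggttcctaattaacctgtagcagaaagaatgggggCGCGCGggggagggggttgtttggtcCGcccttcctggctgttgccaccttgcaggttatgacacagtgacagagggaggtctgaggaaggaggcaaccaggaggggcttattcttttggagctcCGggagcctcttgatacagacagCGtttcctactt
Hrh3, chr2:180104358-180104657, minus strand: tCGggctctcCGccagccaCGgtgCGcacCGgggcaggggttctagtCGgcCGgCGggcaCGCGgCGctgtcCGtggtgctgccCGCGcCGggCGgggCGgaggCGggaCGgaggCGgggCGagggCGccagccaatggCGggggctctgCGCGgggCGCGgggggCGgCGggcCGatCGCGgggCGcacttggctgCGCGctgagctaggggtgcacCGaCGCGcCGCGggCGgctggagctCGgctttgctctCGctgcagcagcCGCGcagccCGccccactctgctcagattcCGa
Chrna7, chr7:63212477-63212776, minus strand: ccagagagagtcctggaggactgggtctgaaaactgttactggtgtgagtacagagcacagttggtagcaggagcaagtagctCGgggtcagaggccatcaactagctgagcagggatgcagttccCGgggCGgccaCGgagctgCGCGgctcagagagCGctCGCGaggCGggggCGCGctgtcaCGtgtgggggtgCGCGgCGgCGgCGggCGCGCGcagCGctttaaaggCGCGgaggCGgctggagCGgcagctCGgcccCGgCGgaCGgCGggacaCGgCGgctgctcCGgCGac

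Htr2c and Htr2a held 5 and 6 CG pairs in these windows, and Hrh3 and Chrna7 held 47 and 35. Of the other lower receptors, Htr1b held 11 and Chrna4 33, and no window is given for Chrm1. Over 49 windows of 40 receptor genes the median was 14 CG pairs, against 7 over 32851 windows of all genes. A GC box (GGGCGG on either strand) was found in 4 of the 6 windows of lower receptors, in 57.1% of the receptor windows and in 35.7% of all windows. The cyclic AMP response element (TGACGTCA), the TATA box (TATAAA) and the AP-1 site (TGACTCA) were each found in 0 of the 6, against 1.79%, 13.6% and 5.20% of all windows. A match is a run of letters and no measured binding.

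Serotonin receptors held 3 of the 7 lower calls. These were 3 of the 11 with at least 1 CPM, beside 17.3% of all genes of that level. The median log2 fold change of the 11 was -0.56, against -0.14 for all genes of that level. Htr2a, the Gq-coupled receptor of pyramidal cells at which serotonergic hallucinogens act, lies at chr14:74640840-74709494 (GRCm38, like all gene positions here). All CPM values of single genes and of marker sums are scaled by edgeR's TMM factors. The level of Htr2a was 114, 58.2 and 97.0 CPM in the 6-month mice 10, 11 and 17. It was 38.6, 40.8 and 62.3 CPM in the 24-month mice 2, 4 and 5. The ages overlapped, since mouse 11 lay below mouse 5. The mean fell from 89.6 ± 28.4 to 47.2 ± 13.1 CPM (SD, n = 3; log2 fold change -0.92 (SE 0.25), edgeR adjusted p = 0.0615), the steepest fall among receptors with at least 50 counts. On the TPM scale, which is not corrected by these factors, the means were 56.1 ± 17.5 and 32.1 ± 8.88 TPM. The Htr2a share of the summed serotonin receptor TPM was 36.4% at 6 months and 27.0% at 24 months. Without the 6-month mouse 10 the log2 fold change was -0.71 and without mouse 11 it was -1.12.

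Htr2c, a second Gq-coupled receptor (chrX:146962513-147197277), had the smallest adjusted p of all receptors. Its level was 25.7, 28.0 and 24.5 CPM at 6 months and 15.2, 15.3 and 16.4 CPM at 24 months. The 24-month mice lay close together, well below every 6-month mouse, with means of 26.1 ± 1.79 and 15.7 ± 0.670 CPM (SD, n = 3; log2 fold change -0.74 (SE 0.11), edgeR adjusted p = 0.04997). The choroid plexus expresses Htr2c strongly, and its 6 marker genes summed to 44.8, 18.3 and 28.1 CPM at 6 months and to 41.4, 44.6 and 21.2 CPM at 24 months, with 0 of the 6 called. The part of choroid plexus content in the Htr2c values was not tested.

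Htr1b, a Gi-coupled receptor that limits release at nerve endings (chr9:81628291-81633828), was also lower in every 24-month mouse. Its level was 8.37, 7.16 and 8.98 CPM at 6 months and 5.33, 4.94 and 4.59 CPM at 24 months (means 8.17 ± 0.928 and 4.95 ± 0.373 CPM, SD, n = 3; log2 fold change -0.72 (SE 0.15), edgeR adjusted p = 0.0518). Reads were counted with the default setting of featureCounts, which ignores strand, and 852 exonic bases of Htr1b overlap D430036J16Rik on the other strand, so reads of both genes cannot be told apart there. The Gi-coupled receptors Htr1a and Htr1f did not pass. Htr1a stood at 39.4, 34.2 and 26.8 CPM at 6 months and at 11.8, 22.8 and 32.9 CPM at 24 months (log2 fold change -0.57 (SE 0.30), edgeR adjusted p = 0.218), and Htr1f at (6-month against 24-month mice, as in the comparisons that follow) 19.1, 19.2 and 13.7 against 5.98, 11.3 and 14.7 CPM (log2 fold change -0.70 (SE 0.28), edgeR adjusted p = 0.123). In both genes mouse 2 was lowest by far and mouse 5 lay within the 6-month range. Without mouse 5 both were called (adjusted p = 0.0525 and 0.0467), and without mouse 2 the log2 fold changes were -0.26 and -0.41.

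The other 9 serotonin receptors were not called, with edgeR adjusted p-values from 0.196 to 0.642. Log2 fold changes ran from -0.67 for Htr1d to 0.81 for Htr3b, both at low counts. Htr3a, the subunit that forms the serotonin-gated channel and marks a class of interneurons, gave counts of 264, 308 and 362 in the 6-month mice and of 490, 453 and 290 in the 24-month mice (log2 fold change 0.36). The Gs-coupled Htr6 and Htr7 were fitted at 0.28 and 0.46. The 3 serotonin receptors called were Gq- or Gi-coupled, and whether they differ from the others was not tested.

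**Figure D3:**
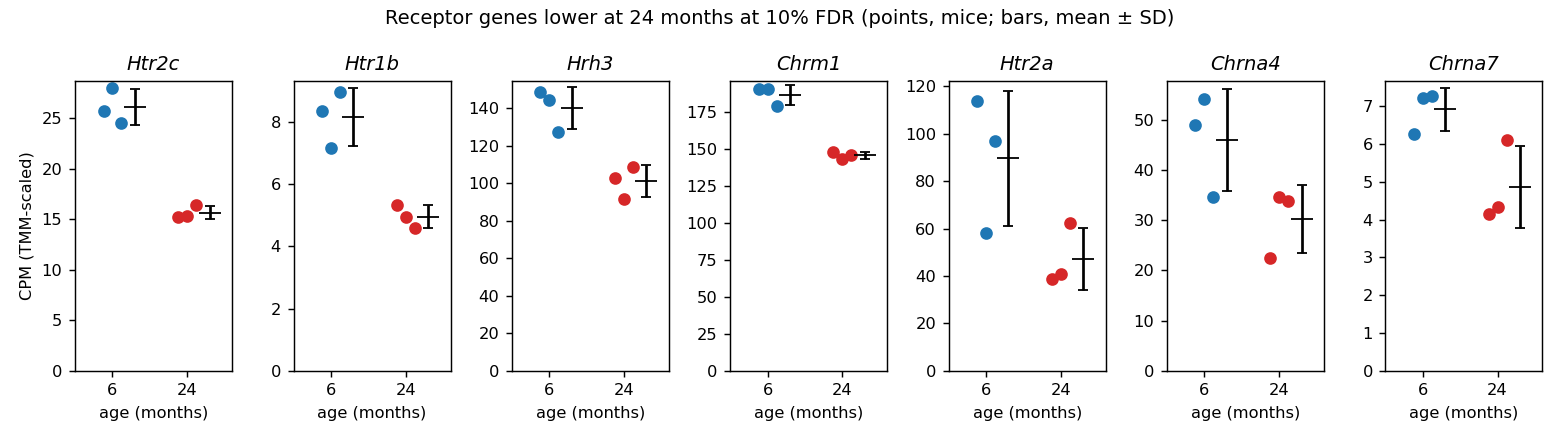
CPM (TMM-scaled) of the 7 receptor genes lower at 24 months at 10% FDR, with 1 point per mouse, a short line at the mean and a bar of ± SD at each age (n = 3), on axes that start at 0. On this scale the ages are apart in Htr2c, Htr1b, Hrh3, Chrm1 and Chrna7 and overlap in Htr2a and Chrna4.

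Among histamine receptors the fall was in the most abundant member. Hrh3, the Gi-coupled receptor that histamine neurons and many other neurons carry at their endings (chr2:180099465-180104488), stood at 149, 144 and 128 CPM at 6 months and at 103, 91.7 and 108 CPM at 24 months. All 24-month mice were below all 6-month mice, with means of 101 ± 8.55 against 140.3 ± 11.2 CPM (SD, n = 3; log2 fold change -0.47 (SE 0.10), edgeR adjusted p = 0.0519). Its exons share 349 bases with Gm17180 on the other strand. Scaled by library totals alone, the log2 fold change was -0.28 and the adjusted p 0.109, which misses 10%.

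Hrh1, which couples to Gq and mediates arousal, was not called. Its level was 24.8, 25.8 and 27.1 CPM at 6 months and 26.1, 19.4 and 16.2 CPM at 24 months (log2 fold change -0.33 (SE 0.16), edgeR adjusted p = 0.192), and mouse 2 lay within the 6-month range while mice 4 and 5 lay below it. The Gs-coupled Hrh2 stood at 12.2, 13.6 and 13.0 against 11.1, 10.2 and 12.2 CPM (adjusted p = 0.267). Hrh4, best known from blood cells, gave counts of 0, 0 and 1 in the 6-month mice and of 5, 4 and 2 in the 24-month mice. The ratio of its counts, scaled for library size, was 10.7 (95% exact interval 1.55 to 459.6, counting error only). The fit gave an adjusted p of 0.0911. Hrh4 met the filter of 10 counts only through its 24-month counts, and without mouse 2 or mouse 4 it fell below the filter and was not tested. Of the other fits with 1 mouse left out, only that without mouse 5 called it (adjusted p = 0.0627). The sensory receptor genes described above were also higher in the 24-month libraries, and the part of that difference in the Hrh4 values was not tested.

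Muscarinic receptors were led by Chrm1, the Gq-coupled M1 receptor of pyramidal cells (chr19:8663789-8683587). Its exons share 329 bases with Gm22820 on the other strand. Its level was 190.3, 191 and 179 CPM at 6 months and 148, 143 and 146 CPM at 24 months. The ages did not overlap (means 187 ± 6.72 and 146 ± 2.17 CPM, SD, n = 3; log2 fold change -0.36 (SE 0.08), edgeR adjusted p = 0.0547). The call depended on the scaling: with library totals the log2 fold change was -0.17 (adjusted p = 0.214) and with TMM factors from genes of at least 1 CPM it was -0.20 (adjusted p = 0.160).

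Chrm4, a Gi-coupled receptor, had 9.89, 13.1 and 7.88 CPM at 6 months and 9.12, 5.81 and 5.03 CPM at 24 months, with mouse 2 inside the 6-month range (log2 fold change -0.63 (SE 0.25), edgeR adjusted p = 0.122). It did not pass, and without the 6-month mouse 11 its log2 fold change was -0.38. For the Gq-coupled Chrm3 the levels were 35.3, 53.9 and 56.8 against 35.5, 41.7 and 52.2 CPM, with wide overlap (log2 fold change -0.17 (SE 0.19), edgeR adjusted p = 0.556), and its direction turned with library totals (0.01). Chrm2, the Gi-coupled receptor found on cholinergic endings, was fitted at -0.42 (adjusted p = 0.245). Chrm5 was rare, at 4, 8 and 8 against 10, 14 and 8 counts (adjusted p = 0.334).

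Of the 11 neuronal nicotinic subunits, 2 fell and 0 rose at 10% FDR, beside 8.33% lower and 10.0% higher of all genes tested. These were 2 of the 5 subunits of at least 1 CPM, beside 17.3% lower and 2.43% higher of genes of that level. Chrna4 (chr2:181018380-181043546), which pairs with Chrnb2 in the main high-affinity receptor of the brain, stood at 48.9, 54.2 and 34.6 CPM at 6 months and 22.5, 34.6 and 33.8 CPM at 24 months. Mouse 17 of 6 months lay beside the 24-month mice 4 and 5, and mouse 2 was lowest (means 45.9 ± 10.1 and 30.3 ± 6.77 CPM, SD, n = 3; log2 fold change -0.60 (SE 0.20), edgeR adjusted p = 0.0855). Without the 6-month mouse 11 the unadjusted p was 0.0809. The call was also lost with library totals (adjusted p = 0.183), with TMM factors from genes of at least 1 CPM (0.156) and with filterByExpr (0.201). Its partner Chrnb2 was at 42.1, 42.2 and 35.5 against 31.3, 36.8 and 33.2 CPM and did not pass (log2 fold change -0.24 (SE 0.11), edgeR adjusted p = 0.177), and 1365 of its exonic bases overlap Adar on the other strand.

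Chrna7 (chr7:63098692-63212569), which forms a calcium-permeable channel on its own, stood at 6.26, 7.21 and 7.27 CPM at 6 months and 4.16, 4.34 and 6.11 CPM at 24 months. In these CPM values mouse 5 lay just below the lowest 6-month mouse, so the ages did not overlap (log2 fold change -0.51 (SE 0.18), edgeR adjusted p = 0.0979). On the TPM scale, which is not corrected by TMM factors, the ages overlapped. There mouse 5, at 5.16 TPM, lay above the 6-month mouse 10, at 4.86 TPM. The call moved with single mice: without the 24-month mouse 5 the log2 fold change was -0.70 (adjusted p = 0.0358), and without mouse 2 it was -0.40 (adjusted p = 0.220). The call was also lost with library totals (adjusted p = 0.245) and with TMM factors from genes of at least 1 CPM (0.202). The same held with DESeq2 (adjusted p = 0.112), without the filter on low counts (0.140) and with filterByExpr (0.218). The 8 neuronal subunits besides Chrna4, Chrna7 and Chrnb2 ran from -0.59 (Chrna3) to 0.93 (Chrna9), with adjusted p-values from 0.169 to 0.857.

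The muscle nicotinic subunits, which form the receptor of the neuromuscular junction, were all fitted higher at 24 months, and 0 of 5 passed. Chrnb1 was the only one with a mean of at least 1 CPM, at 0.681, 0.811 and 0.825 CPM at 6 months and 0.986, 1.39 and 1.35 CPM at 24 months. All 24-month mice lay above all 6-month mice, and the adjusted p just missed the threshold (log2 fold change 0.68 (SE 0.24), edgeR adjusted p = 0.101). Chrnb1 was called in 3 of 13 alternative fits. These were the likelihood ratio test (adjusted p = 0.0706), library totals (0.0712) and TMM factors from genes of at least 1 CPM (0.0778). Chrna1 had 19, 31 and 27 against 29, 35 and 28 counts (adjusted p = 0.581), and Chrna1os, the antisense RNA, had 46, 35 and 45 against 54, 57 and 68 counts (adjusted p = 0.190). Chrng had 2, 1 and 2 against 12, 5 and 3 counts, so that mouse 2 held 12 of the 20 counts at 24 months. Over the 3 mice of each age Chrnd had 4 and 12 counts and Chrne 7 and 10. The scaled ratio was 3.88 for Chrng (95% exact interval 1.41 to 13.2) and 2.91 for Chrnd (0.883 to 12.4), covering counting error only. Of all 18 receptors below 1 CPM, with 10 to 178 counts over the 6 libraries, 15 were fitted higher. The median log2 fold change of the 18 was 0.64, beside the rise of the sensory receptor genes in the same libraries. Over all genes tested the median was 0.15, and over those of at least 1 CPM it was -0.14. The share and median of all genes below 1 CPM were not computed, so the 15 cannot be set against them.

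No dopamine receptor was called at 10% FDR. Drd5, a Gs-coupled receptor, stood at 5.77, 3.82 and 4.80 CPM at 6 months and 2.90, 3.82 and 4.70 CPM at 24 months (log2 fold change -0.33 (SE 0.22), edgeR adjusted p = 0.321). Of the 3152 exonic bases of Drd5, 1531 overlap Gm26560 on the other strand, so reads of both genes cannot be told apart there. The same holds for the summed dopamine receptor TPM, of which Drd5 made up 53.5% at 6 months. Drd1, the main Gs-coupled dopamine receptor, was at 5.51, 2.61 and 1.99 against 1.51, 2.34 and 2.56 CPM, and its fitted change of -0.65 (SE 0.36, adjusted p = 0.244) depended on the 6-month mouse 10, without which the log2 fold change was -0.10. Drd4, a Gi-coupled receptor of the frontal cortex, was at 1.07, 0.927 and 1.19 against 1.70, 1.62 and 1.26 CPM. Each 24-month mouse was above every 6-month value, without passing (log2 fold change 0.52, edgeR adjusted p = 0.149). Drd4 was called in 2 of 13 alternative fits, without mouse 5 (adjusted p = 0.0927) and with library totals (0.0932). Drd2 had 1, 12 and 4 against 10, 12 and 4 counts, and Drd3 had 3 and 7 counts over the 3 mice of each age.

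Noradrenaline receptors gave no call at 10% FDR among 9, and their median log2 fold change was -0.02. Adra1d, the Gq-coupled receptor of highest level, stood at 27.9, 35.4 and 46.4 CPM at 6 months and 40.04, 35.2 and 32.8 CPM at 24 months (log2 fold change -0.02 (SE 0.17), edgeR adjusted p = 0.944). Its 24-month values lay inside the 6-month range, as did the 24-month mice 4 and 5 for the Gs-coupled Adrb1, which was at 19.8, 29.9 and 32.7 against 36.002, 21.9 and 21.4 CPM (log2 fold change -0.05 (SE 0.23), edgeR adjusted p = 0.892). The fitted direction of both turned with library totals, to 0.17 and 0.14. Adra1b, also Gq-coupled, stood at 24.7, 26.9 and 36.01 against 34.7, 40.1 and 35.98 CPM, with mouse 17 of 6 months level with the old mice (log2 fold change 0.34 (SE 0.15), edgeR adjusted p = 0.148). Adra1b was called in 3 of 13 alternative fits. It was called with library totals (log2 fold change 0.53, adjusted p = 0.0712) and without mouse 17 (log2 fold change 0.52, adjusted p = 0.0922). The third call was with TMM factors from genes of at least 1 CPM (log2 fold change 0.50, adjusted p = 0.0782). Adra2b, a rare Gi-coupled receptor, had 9, 21 and 16 against 14, 31 and 30 counts (adjusted p = 0.259). The 5 others ran from -0.59 (Adra2a) to 0.18 (Adra2c).

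Summed per transmitter on the TPM scale, serotonin receptors stood at 170.9, 137.3 and 154.9 TPM in the 6-month mice and at 105.2, 115.7 and 135.9 TPM in the 24-month mice. Histamine receptors stood at 191.9, 191.0 and 172.1 TPM against 154.5, 134.3 and 152.9 TPM, and muscarinic receptors at 153.4, 174.5 and 155.3 TPM against 136.6, 131.7 and 138.5 TPM. The ages did not overlap in these 3 sums, and an exact permutation test could not go below p = 0.1 with 3 mice against 3. Neuronal nicotinic subunits summed to 62.0, 67.8 and 49.95 TPM against 39.5, 53.3 and 51.8 TPM, with overlap. Noradrenaline receptors stood at 123.1, 154.7 and 189.1 TPM at 6 months, and the 24-month mice at 185.8, 170.5 and 163.1 TPM lay within that range. Dopamine receptors were at 12.9, 8.47 and 8.70 TPM against 7.60, 9.53 and 10.2 TPM. Muscle nicotinic subunits went the other way without overlap, at 1.69, 2.04 and 2.09 TPM against 3.02, 3.49 and 3.10 TPM. By coupling, 3 of 10 Gq-coupled receptors, 2 of 16 Gi-coupled receptors and 2 of 18 channel subunits were lower at 10% FDR. Of Gs-coupled receptors 0 of 9 were lower, and of all genes tested 8.33%. Among members of at least 1 CPM, 3 of 8 (Gq), 2 of 11 (Gi), 2 of 7 (channel) and 0 of 9 (Gs) were lower. Of all genes of that level 17.3% were lower. Differences between these classes were not tested.

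Other genes of these pathways were read in the same fit. Of 24 genes for transmitter synthesis, transport and breakdown, 3 were lower and 2 higher at 10% FDR, beside 8.33% lower and 10.0% higher of all genes tested. Slc22a3, a low-affinity monoamine carrier outside nerve endings, fell from 4.44 ± 0.861 to 2.01 ± 0.530 CPM (SD, n = 3; log2 fold change -1.14 (SE 0.23), edgeR adjusted p = 0.0518). Slc29a4, a monoamine carrier of similar role, fell from 5.66 ± 0.948 to 3.27 ± 0.138 CPM (log2 fold change -0.79 (SE 0.17), edgeR adjusted p = 0.0518), and Hnmt, the enzyme that inactivates histamine in the brain, from 53.5 ± 6.03 to 42.1 ± 3.93 CPM (log2 fold change -0.34 (SE 0.12), edgeR adjusted p = 0.0902). The serotonin transporter Slc6a4 and the vesicular carrier Slc18a1 were higher on few counts. Slc6a4 had 4, 6 and 4 against 24, 13 and 10 counts (adjusted p = 0.0665) and Slc18a1 13, 9 and 18 against 41, 25 and 27 counts (adjusted p = 0.0745). The genes that define the transmitters were not called: Th, which makes dopamine and noradrenaline, had 105, 275 and 90 against 25, 102 and 80 counts (adjusted p = 0.125), and adjusted p was 0.803 for Dbh, 0.290 for Tph2, 0.630 for Chat and 0.183 for Hdc.

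Downstream of the receptors, 8 of 33 G protein and second messenger genes were lower and 0 higher at 10% FDR, beside 17.3% of genes of at least 1 CPM lower, and 3 genes of the list (Ppp1r1b, Pde10a and Rgs9) are striatal markers as well. They were the G protein subunits Gnai1, Gnai3, Gnao1 and Gnaz of the Gi class and Gnal of the Gs class, adenylyl cyclase Adcy3, phospholipase Plcb1, which Gq activates, and Rgs4, which speeds the shutdown of Gi and Gq. Rgs4 fell from 1509.7 ± 164 to 926 ± 122 CPM (log2 fold change -0.70 (SE 0.12), edgeR adjusted p = 0.0518), and Plcb1 from 415 ± 38.2 to 285 ± 72.0 CPM (log2 fold change -0.54 (SE 0.16), edgeR adjusted p = 0.0702). The 4 Gi-class subunits had log2 fold changes of -0.34 (Gnai1), -0.52 (Gnai3), -0.31 (Gnao1) and -0.42 (Gnaz). Of 9 nicotinic receptor chaperones and toxin-like regulators, 2 were lower and 0 higher, beside the same 17.3%. They were Ric3 (log2 fold change -0.36 (SE 0.11), edgeR adjusted p = 0.0704) and Tmem35a (log2 fold change -0.31 (SE 0.11), edgeR adjusted p = 0.0933), both of which are needed for assembly of Chrna7 channels.

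In TMM-scaled CPM, neuron markers were lower along with these receptors. The TMM factors were 0.921, 0.946 and 0.940 for the 6-month mice and 1.10, 1.07 and 1.04 for the 24-month mice. A higher factor lowers the CPM of a library, and the marker sums were not computed under another scaling. The 7 neuron markers summed to 72.8%, 78.8% and 90.1% of their 6-month mean in the 24-month mice 2, 4 and 5, against 96.0% to 106.8% in the 6-month mice. Of the 7, 3 (Syt1, Stmn2 and Camk2a) were lower at 10% FDR, beside 17.3% lower and 2.43% higher of all genes of at least 1 CPM. These shares stand beside the marker calls that follow as well. Interneuron markers stood at 75.6%, 85.5% and 96.2% (0 of 8 called), and striatal projection neuron markers at 70.9%, 79.4% and 91.4% (3 of 8 lower, Penk and Tac1 among them). By the same measure Htr2c stood at 58.4%, 58.7% and 63.0%, Htr1b at 65.3%, 60.5% and 56.1%, Hrh3 at 73.4%, 65.4% and 77.3%, and Chrm1 at 79.1%, 76.8% and 78.2%. Htr2a, at 43.1%, 45.5% and 69.6%, Chrna7, at 60.2%, 62.7% and 88.4%, and Chrna4, at 49.1%, 75.4% and 73.7%, were lowest in mouse 2. Of the 35 receptors of at least 1 CPM, 18 were lowest in mouse 2 among the 24-month mice, 5 in mouse 4 and 12 in mouse 5. Mouse 2 was also the highest of these mice for 15 of the 35, mouse 4 for 6 and mouse 5 for 14. Astrocyte markers stood at 98.5%, 95.4% and 102.1% (0 of 6 called) and microglia markers at 94.6%, 95.8% and 102.5% (Tmem119 higher and Csf1r lower of 6). Oligodendrocyte markers varied, at 41.9%, 101.5% and 134.9% (0 of 6 called), as did those of endothelial cells at 65.6%, 99.0% and 122.2% (0 of 6), mural cells at 63.8%, 117.1% and 143.0% (0 of 6) and meningeal fibroblasts at 60.2%, 156.9% and 79.8% (0 of 5). Red blood cell markers stood at 62.7%, 84.1% and 88.1% (1 of 5 lower, Hbb-bt). The part of cell content in the receptor values was not tested.

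**Figure D4:**
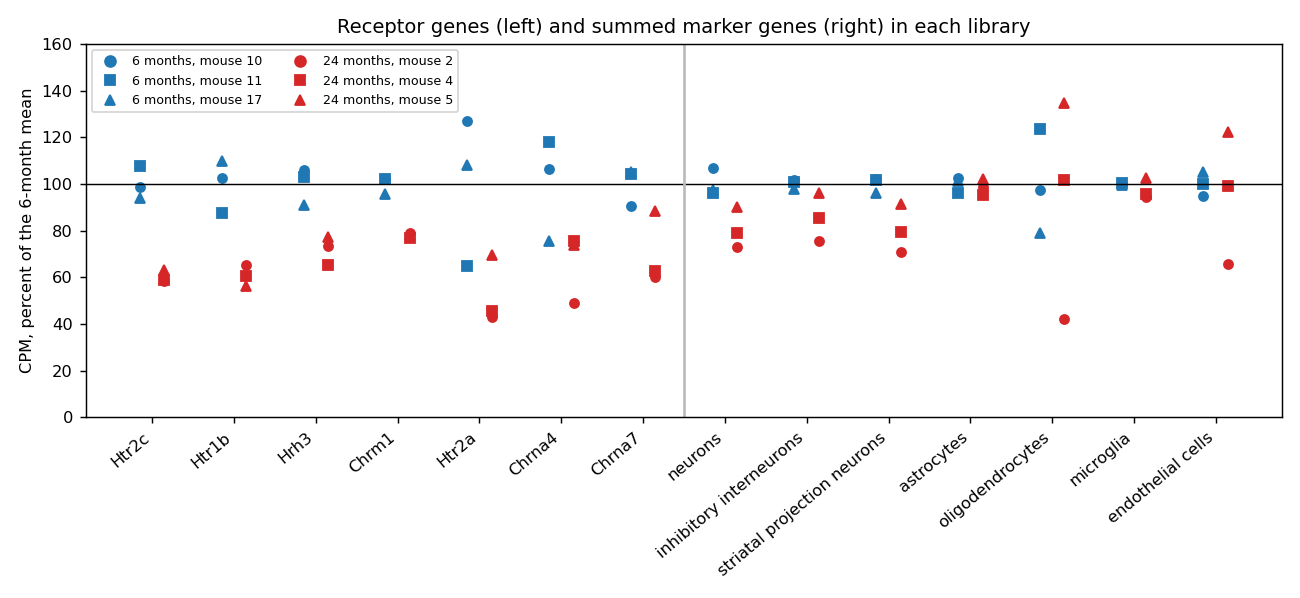
CPM of the 7 lower receptors and summed CPM of cell type marker lists in each mouse (blue, 6 months; red, 24 months; the shape gives the mouse), as a percentage of the mean of the 6-month mice, with a line at 100%. All CPM are TMM-scaled. All 7 receptors lie below 100% in the 24-month mice, and the neuron markers run there from 72.8% in mouse 2 to 90.1% in mouse 5.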

How the data were processed

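The authors trimmed reads with Trim Galore 0.6.4, mapped them to GRCm38 with STAR 2.7.3a and counted them on exons with featureCounts of Subread 2.0.0, with its default of ignoring strand. They deposited per mouse 1 raw count and 1 TPM value for 55421 genes; the stated options split reads of several positions, yet 100% of the deposited counts are whole. TPM values deposited by the authors are counts per exonic length, scaled to the library, and were used for levels and sums.

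Counts were tested with version 4.0.16 of edgeR under R 4.3.3. Genes needed 10 counts summed over all 6 libraries, scaling was by TMM, and the model was the quasi-likelihood test without covariates, with Benjamini-Hochberg adjustment over 32905 genes. The SE was taken from the fold change and the F statistic. SD values are over 3 mice per age, and the precision of rare genes is given by counts with exact 95% intervals that cover counting error only. Totals of 29495379 to 36494240 counts leave rare genes with a few counts. Alternatives were edgeR's likelihood ratio test, DESeq2 1.42.0, other scalings, other filters and each mouse left out.

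The receptors, pathway lists and marker lists were chosen with earlier results of these data known. The result for 1 marker gene is not reported here. Values are given singly for the 3 members of highest TPM per transmitter, members called at 10% FDR, and the 3 largest rises and falls among members with at least 50 counts. Those given by name besides, such as Htr3a and Chrnd, were chosen after their values were seen. Gene positions and lengths are from GENCODE vM21 (GRCm38), in which 55240 identifiers were found, and start regions from RefSeq (GRCm38.p6), which had 41 of the members; those on 1 chromosome were left out, which left 40. Python 3.11.15, pandas 2.3.3, numpy 2.4.6, scipy 1.17.1 and matplotlib 3.10.9 were used for the rest.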

Additional observations from a re-analysis of the deposited data

How the results depend on the processing

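No paired analysis was possible because mice of the 2 ages share no numbers. The 7 lower receptors at 10% FDR numbered 9 with the likelihood ratio test, 6 with DESeq2, 7 with its size factors in edgeR, 6 without the filter, 3 with filterByExpr, 3 with library totals and 4 with TMM factors from genes of at least 1 CPM. The 1 higher receptor numbered 3, 0, 1, 0, 0, 4 and 3 under the same settings. At an unadjusted p under 0.05, the 9 lower numbered 4 with library totals, and the 5 higher numbered 8 with library totals, 3 with DESeq2 and 3 with filterByExpr. The median log2 fold change of the receptors moved from -0.08 to 0.11 with library totals and to 0.0695 with TMM factors from genes of at least 1 CPM, while that of all genes moved from 0.15 to 0.34 and 0.30. With each mouse left out, lower calls at 10% FDR ran from 0 to 10, higher calls from 0 to 5, lower receptors at an unadjusted p under 0.05 from 5 to 11, higher ones from 2 to 6, and the median from -0.17 (without the 6-month mouse 10) to -0.0468. The genes given singly by the rule on members include all those called in the main fit, but not all those called under the alternatives. Among the genes so given the sign turned for 3, and none of these 3 was called in any fit. Signs of the remaining receptors under the alternatives were not examined. Chrm3 stood at 0.0102 with library totals. Adra1d stood at 0.17 with library totals, 0.14 with TMM factors from genes of at least 1 CPM, 0.0167 without the filter and 0.0948 with filterByExpr, and ran from -0.18 to 0.19 with each mouse left out. Adrb1 stood at 0.14, 0.11 and 0.0660 with library totals, those TMM factors and filterByExpr, and ran from -0.33 to 0.0919 with each mouse left out. The cause was not tested. DESeq2 gave no adjusted p for 5 receptors, Hrh4 among them, and filterByExpr kept 42 of the 53. Depth limits the receptors of a few counts: for Hrh4, Chrnd and Drd3 the counting intervals of the ratio ran from 1.55 to 459.6, 0.883 to 12.4 and 0.517 to 13.6.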
